A study of Salmo salar with 72 samples.

Results

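Gene expression in Atlantic salmon (Salmo salar) distal intestine (DI) was compared between fish fed any of 5 diets that held soybean meal and fish fed a fishmeal diet. The comparison used 36 of the 72 libraries of the study, which were the DI libraries of 30 fish fed soybean diets and of 6 fish fed fishmeal. Each library was placed by the diet and tissue given for it, and each soybean diet had the same weight in the pool. Smolts were fed for 42 days in seawater, and DI and spleen were taken from 2 fish in each of 3 tanks per diet. The fishmeal diet is called FM. The diet SBM held soybean meal at 30% and no yeast. The diets ICJ and ACJ held the same 30% soybean meal with inactivated or autolyzed Cyberlindnera jadinii, and IWA and AWA held it with inactivated or autolyzed Wickerhamomyces anomalus. Thus 24 of the 30 soybean fish also ate yeast, and soybean meal with yeast can be told apart from soybean meal alone only through the 6 fish fed SBM. All 5 soybean diets also held less fishmeal, wheat gluten and starch than FM, no cellulose, and added lysine, methionine and phosphate. The effects of these changes cannot be told apart from that of soybean meal. The labels do not say which fish shared a tank, so p-values below measure the spread between fish.

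The DI of salmon is lined by enterocytes with large vacuoles that take up proteins and lipids from the lumen, and it reabsorbs water, ions and bile salts. Soybean meal fed to salmon is known to give an enteritis of this segment, with shorter folds, loss of the vacuoles and entry of immune cells into the mucosa. Plant meals also hold little taurine and cholesterol, both of which fishmeal supplies. Because whole tissue was sequenced, fewer cells of a type and less RNA per cell of that type cannot be told apart.

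Between 6976621 and 30857656 fragments were counted on genes per DI library (median 18070953), and the 6 FM libraries lay between 12809583 and 20441787. The DI label was checked with cubn, dab2 and slc10a2, genes of receptor-mediated uptake and bile salt uptake, which summed to 1925 to 5995 CPM in FM fish, CPM being the gene's count scaled to the size of the library. One library went against its label: in ICJ replicate 4 these genes summed to 79.7 CPM, and the 5 enterocyte markers summed to 569.9 CPM against a soybean median of 3724 CPM. Its 6 granulocyte markers summed to 25665 CPM, the highest of the 36 libraries. The only spleen marker measured, nkx3-2, stood at 0.42 CPM in it, within the range of FM fish (0.36 to 2.89 CPM). Which tissue this library holds was not tested. ICJ replicate 4 and IWA replicate 5 were the libraries farthest from the median library, and results are given below with and without both. Both are soybean fish, chosen after the data were seen, while FM replicates 4 and 3, next in distance, were kept. IWA replicate 5 did not go against its label (4664 CPM of the DI genes) and had the fewest fragments, 6976621. Calls found only without both therefore depend on that choice. FM replicates 3, 4 and 5 differed from the other libraries in the folder that their file headers give for the alignments.

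In the DI, 627 of 32157 tested genes were differentially expressed (DEGs) between the soybean diets and FM, which is 1.95% of the genes tested. A gene was called when edgeR's quasi-likelihood test gave a Benjamini-Hochberg adjusted p under 0.05. Of these, 231 were up-regulated in soybean fish (0.718%) and 396 were down-regulated (1.23%), and 5726 genes had an unadjusted p under 0.05. The median log2 fold change was 0.99 for the up-regulated DEGs and -1.19 for the down-regulated DEGs, while over all genes tested it was -0.05. Of all genes tested, 14235 had a log2 fold change above 0 and 17922 below 0, the background for the list counts below. Lists were matched by symbol or synonym, so a gene known only by a LOC number or by position is in no list. Of 34983 genes paired with RefSeq genes, 8967 had a symbol. The measured genes of a list are those matched in this way and tested. A log2 fold change above 1 was found for 114 DEGs and one below -1 for 247. All 5 soybean diets lay on the same side of FM for 625 of the 627. As the mean of these diets against the same 6 FM fish chose the DEGs, this is largely built in. Single fish overlapped between the groups: no tested gene had all 30 soybean fish below or above every FM fish, and the median DEG had 22 of them so placed. The same fish chose the DEGs, so that count describes them and tests nothing. Over all genes tested, the median soybean fish lay above every FM fish in 14.4% of genes and below every FM fish in 13.2%.

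**Figure D1:**
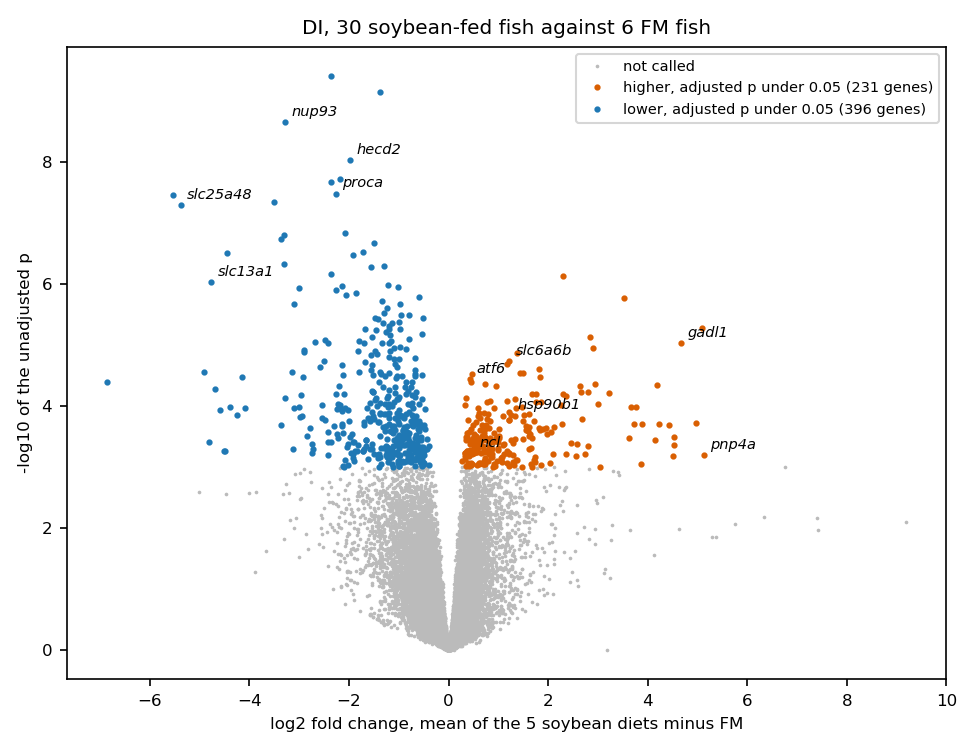
Log2 fold change of soybean diets over FM in the DI (x axis) against -log10 of the unadjusted p (y axis) for the 32157 genes tested. Coloured points are the 231 up-regulated and 396 down-regulated DEGs, and labels mark some of the genes described in the text. The down-regulated DEGs are more numerous and reach lower p.

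The number of DEGs depended on single libraries and diets. Without ICJ replicate 4 it was 1198, without ICJ replicate 2 it was 1035 and without IWA replicate 5 it was 964. It fell to 390, 371, 281 and 183 when FM replicate 1, 4, 5 or 6 was left out. Without FM replicates 3, 4 and 5 together, which leaves 3 FM fish, 73 DEGs were found, and without the diet AWA 72. Leaving out both ICJ replicate 4 and IWA replicate 5 gave 1965 DEGs (6.09% of genes tested), of which 834 were higher (2.59%) and 1131 lower (3.51%), and all 627 were among them.

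Several genes of taurine handling were up-regulated in soybean fish. Taurine is an amino sulfonic acid that salmon conjugate to bile acids and use as an osmolyte. Of the 6 measured genes of the taurine list, 3 rose and none fell, with a median log2 fold change of 0.91. Over all genes tested, 0.718% were called higher and 1.23% lower. The gene gadl1 encodes a decarboxylase related to the enzyme that makes hypotaurine, the precursor of taurine, and lies on chromosome 2 at 1926210 to 1952275 in the Ssal_v3.1 genome. In FM fish its level was 0.36 CPM at the lowest, 1.24 at the median and 2.05 at the highest, and in soybean fish it was 0.88, 26.3 and 137 CPM. Thus 29 of 30 soybean fish lay above every FM fish, and the exception was ACJ replicate 4. The log2 fold change was 4.68 ± 0.89 (SE, edgeR adjusted p = 0.00451), a 25.6-fold rise. A second gene, LOC106594092, annotated as gadl1-like on chromosome 5, is not among the 6 and rose as well (log2 fold change 4.43 ± 1.06, edgeR adjusted p = 0.0233). Its FM median was 0.13 CPM and its soybean median 2.51 CPM. It was not called without FM replicate 4, 5 or 6 (edgeR adjusted p = 0.0557, 0.0568 and 0.0729).

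Both copies of the taurine transporter in the list also rose. For slc6a6 on chromosome 13, FM fish ranged from 113 to 231 CPM (median 135) and soybean fish from 58.4 to 831 CPM (median 418). Of the soybean fish, 27 lay above all FM fish, and ICJ replicate 4, at 58.4 CPM, lay below them. The log2 fold change was 1.43 ± 0.29 (edgeR adjusted p = 0.00911). The copy slc6a6b on chromosome 22 ranged from 81.4 to 165 CPM in FM fish (median 107) and from 113 to 468 CPM in soybean fish (median 284), with 26 of 30 above the FM range and a log2 fold change of 1.22 ± 0.24 (edgeR adjusted p = 0.00701). The other measured genes were not called: cdo1, which encodes cysteine dioxygenase and feeds taurine synthesis, had a log2 fold change of 0.38, bhmt 0.61 and ggt1b -0.34. The calls of slc6a6 and slc6a6b were lost without the diet AWA and without FM replicates 3, 4 and 5, and that of gadl1 without those FM replicates and with limma voom.

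Some genes of protein folding in the endoplasmic reticulum (ER) were up-regulated too. Of 19 measured genes 4 rose and none fell, 17 had a fold change above 0 and 16 of these had an unadjusted p under 0.05, and the median log2 fold change was 0.44. Over all 32157 genes tested, 14235 had a fold change above 0 and 5726 had an unadjusted p under 0.05 in either direction. The transcription factor atf6, a sensor of unfolded protein in the ER, was at 62.3 to 71.9 CPM in FM fish (median 68.0) and at 65.6 to 114 CPM in soybean fish (median 92.3). Again 29 of 30 soybean fish were above the FM range, with ICJ replicate 2 as the exception, and the change was small (log2 fold change 0.44 ± 0.09, edgeR adjusted p = 0.0100). The chaperone hsp90b1, also called endoplasmin, had an FM median of 127 CPM and a soybean median of 346 CPM on chromosome 7 (log2 fold change 1.26 ± 0.29, edgeR adjusted p = 0.0200). The secreted ER protein manf (1.05) and the glycoprotein degradation factor edem1 (0.84) rose by smaller amounts. The splicing target xbp1 (log2 fold change 0.05) and its activator ern1 (-0.04) were not called.

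More ER genes passed the test without the libraries that stood apart. Leaving out ICJ replicate 4 and IWA replicate 5 added canx (0.70), sdf2l1 (0.87), pdia3 (0.55) and sel1l (0.47), so that 8 of 19 rose. In ICJ replicate 4 and IWA replicate 5 the summed level of the list was 2057 and 2089 CPM, against a soybean median of 3250 CPM and an FM median of 2112 CPM, and FM fish ranged from 1754 to 3563 CPM. As both lay low in this list, more calls without them are no separate evidence of a rise. The call of atf6 was lost without the diet AWA and without FM replicates 3, 4 and 5, and that of hsp90b1 without FM replicate 1, 4, 5 or 6 (edgeR adjusted p = 0.0579, 0.0557, 0.0627 and 0.0521). The call of edem1 was lost without FM replicate 1, 2, 4, 5 or 6, SBM replicate 6, ACJ replicate 2, IWA replicate 4 or AWA replicate 5 (edgeR adjusted p = 0.0526 to 0.122), and that of manf without any of 24 libraries (edgeR adjusted p = 0.0507 to 0.132). Among DEGs outside the list, chosen after their values were seen, were a second hsp90b1 copy (0.84), the chaperones hyou1 (0.71) and grp78 (0.70) and the disulfide isomerase PDIA6 (0.71).

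Genes of ribosome biogenesis had log2 fold changes above 0 in all 32 measured members, but only ncl was called. The median log2 fold change was 0.39, against -0.05 over all genes. An unadjusted p under 0.05 was found for 22 of the 32, beside 5726 of all 32157 genes in either direction. Nucleolin, encoded by ncl, organises the nucleolus, and its level was 339 to 440 CPM in FM fish and 376 to 742 CPM in soybean fish, of which 25 lay above the FM range (log2 fold change 0.49 ± 0.13, edgeR adjusted p = 0.0379). The call of ncl was lost without any of 15 libraries, each FM fish among them (edgeR adjusted p = 0.0501 to 0.119). Without ICJ replicate 4 and IWA replicate 5, 8 of the 32 rose, among them rrs1 (0.77), pes (0.53) and the polymerase I subunits polr1a (0.44) and polr1b (0.50). None of the 27 cell cycle genes was called (median log2 fold change 0.25), although 10 had an unadjusted p under 0.05 in the higher direction. Without both libraries mki67 (0.44) and cenpe (0.38), genes of dividing cells, were called.

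The other large rises were of genes with little expression in FM fish. Purine nucleoside phosphorylase pnp4a had the largest rise of the named genes (log2 fold change 5.13 ± 1.36, edgeR adjusted p = 0.0389), from an FM median of 0.43 CPM and an FM maximum of 1.31 CPM to a soybean range of 0.25 to 98.2 CPM, with 10 of 30 soybean fish inside the FM range. The xylosyltransferase xylt1, which starts proteoglycan chains, was at 0 to 0.22 CPM in FM fish and at a median of 0.79 CPM in soybean fish (4.51 ± 1.20). The ceacam1-like gene LOC106605569, of a family of cell adhesion molecules, did not pass 0.11 CPM in any FM fish and lay above this in 28 of 30 soybean fish (4.18 ± 0.89, edgeR adjusted p = 0.0116). It lies inside another annotated gene of the same strand, so reads of both may not be separable. The call of pnp4a was lost without any 1 of the FM fish (edgeR adjusted p = 0.0522 to 0.11), and that of xylt1 without FM replicate 1, 2, 3, 5 or 6 or SBM replicate 6 (edgeR adjusted p = 0.0503 to 0.0925). The serine protease gene prs27 rose by 3.66 ± 0.83 and the rab interactor si:ch211-168d1.3, annotated as Rin2-like, by 2.79 ± 0.61. Both, and LOC106605569, lost their call without the diet AWA and without FM replicates 3, 4 and 5.

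At higher expression, si:ch211-153b23.5, a homolog of the mitochondrial protein Es1, was at 23.6 to 54.3 CPM in FM fish (median 28.9) and at 35.9 to 634 CPM in soybean fish (median 255). Only SBM replicate 1, ACJ replicate 5 and ACJ replicate 6 lay inside the FM range, and the log2 fold change was 2.90 ± 0.56 (edgeR adjusted p = 0.00523). The uncharacterised gene zgc:194930 went from an FM median of 6.59 CPM to 29.2 CPM (1.84 ± 0.38, edgeR adjusted p = 0.00943). The autophagy protease atg4b rose by 0.46 ± 0.10, a small change with 24 of 30 soybean fish above the FM range (edgeR adjusted p = 0.00917). By diet it ranged from 0.27 in ACJ to 0.66 in AWA. Of these, si:ch211-153b23.5 lost its call in 1 of the 50 alternatives, the fit without FM replicates 3, 4 and 5. The calls of zgc:194930 and atg4b were lost in that fit and without the diet AWA (edgeR adjusted p up to 0.151 and 0.137).

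**Figure D2:**
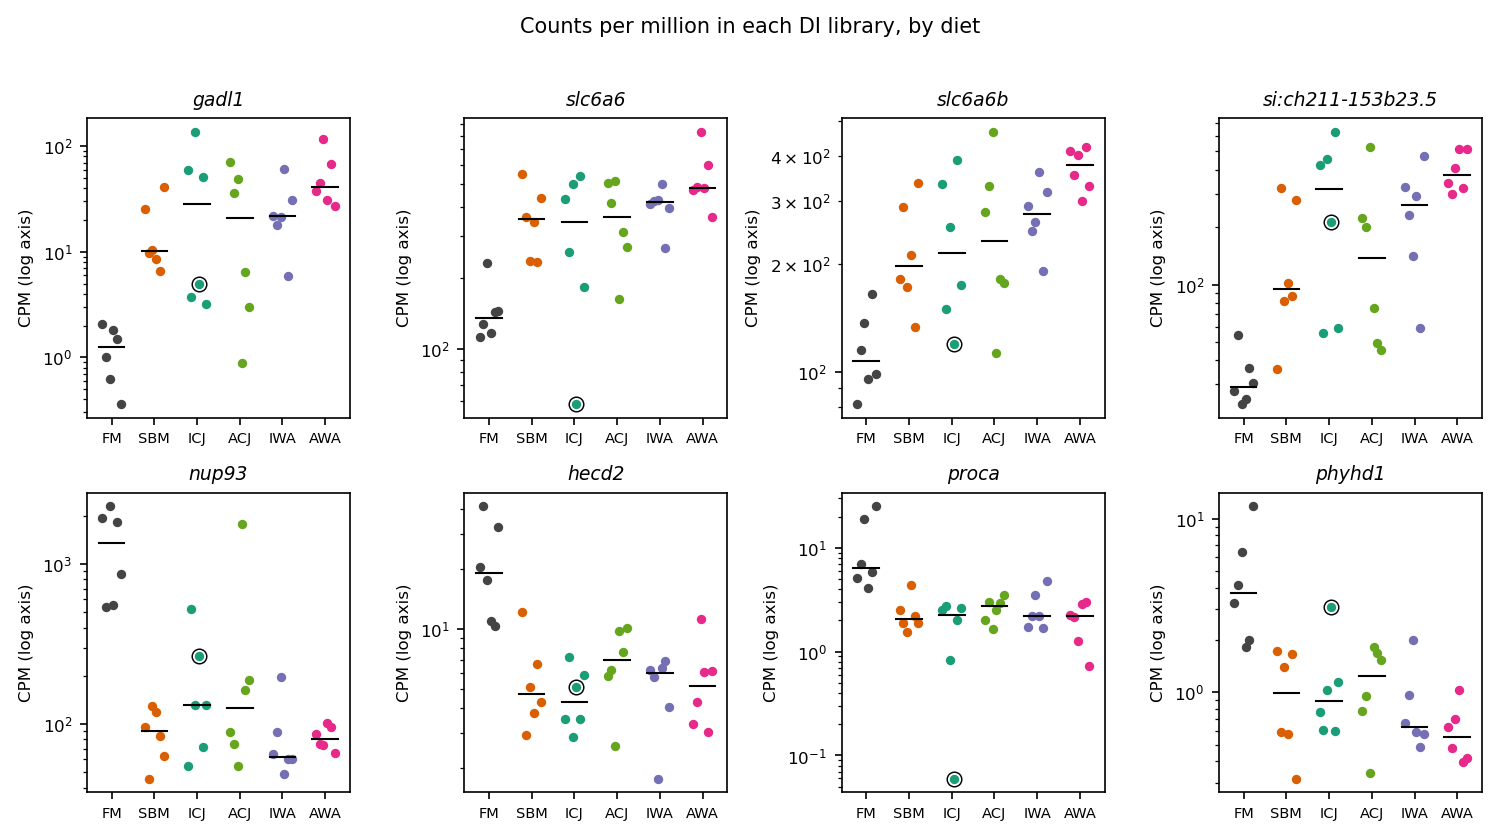
Level of named genes in each fish (y axis, CPM on a log scale) by diet (x axis). Each point is 1 fish, bars are diet medians and the ringed point is ICJ replicate 4. For gadl1, 29 of the 30 soybean fish lie above all 6 FM fish, and for nup93, 29 of 30 lie below them.

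The gene with the lowest adjusted p among the named ones was nup93, which was down-regulated. Nucleoporin 93 is a scaffold protein of the nuclear pore, encoded on chromosome 16 at 31777023 to 31820746. Another annotated gene overlaps this position, as also for hsp90b1, ncl, proca, gnai2b and cyp4v2b. Whether reads of the overlapping genes are separable was not tested. In FM fish its level was 538 CPM at the lowest, 1346 at the median and 2286 at the highest, and in soybean fish it was 45.4, 87.4 and 1771 CPM. All soybean fish but ACJ replicate 4 were below the FM range, and the log2 fold change was -3.28 ± 0.40 (edgeR adjusted p = 2.4e-05). The same fish was the exception for gadl1. The 5 soybean diets gave log2 fold changes of -3.90 (SBM), -2.77 (ICJ), -1.77 (ACJ), -3.95 (IWA) and -4.01 (AWA) for nup93 against the same 6 FM fish.

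The other genes with the lowest adjusted p among named falls kept their call in all 50 alternatives tried, as nup93 did. The ubiquitin ligase hecd2 on chromosome 28 was at 10.4 to 41.2 CPM in FM fish (median 19.0) and at 1.78 to 12.2 CPM in soybean fish (median 5.75), of which 28 lay below the FM range (log2 fold change -1.98 ± 0.26, edgeR adjusted p = 7.3e-05). A further gene of the same strand lies within hecd2 and fell as well (ENSSSAG00000088361, -2.19), and its reads may not be separable. The dioxygenase phyhd1 went from an FM median of 3.71 CPM to 0.74 CPM (-2.35 ± 0.32, edgeR adjusted p = 0.000113), with 27 fish below the FM range. Protein C, an inhibitor of coagulation encoded by proca, went from 6.39 to 2.21 CPM (-2.27 ± 0.32, edgeR adjusted p = 0.000136), with 28 fish below. The receptor gene LOC106586446, erbb4-like and thus of the family of epidermal growth factor receptors, went from 3.90 to 0.74 CPM (-2.08 ± 0.31, edgeR adjusted p = 0.000413). The mitochondrial carrier slc25a48 had the largest fall of the named genes (-5.38 ± 0.77, edgeR adjusted p = 0.000161), from an FM median of 19.9 CPM to 0.14 CPM.

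FM fish differed widely in slc25a48. It was at 30.3, 63.1 and 46.3 CPM in FM replicates 2, 3 and 6 and at 9.44, 1.81 and 0 CPM in FM replicates 1, 4 and 5, so no soybean fish lay below the FM range. SBM replicate 1, at 16.1 CPM, was the highest soybean fish. The G protein subunit gene gnai2b (-2.68 ± 0.51, edgeR adjusted p = 0.00451) also kept its call in the 50 alternatives. Of the soybean fish 25 of 30 were below the FM range, with ICJ replicate 4 among the fish inside it. FM fish were split for gnai2b too, at 43.1, 40.7 and 50.6 CPM in FM replicates 2, 3 and 6. FM replicates 1, 4 and 5 stood at 5.6, 6.6 and 5.4 CPM, within the soybean range. The calcium release channel gene ryr2b fell by 3.31 on the log2 scale (SE 0.53, edgeR adjusted p = 0.000834), from an FM median of 2.71 CPM to 0.41 CPM. It stood at 4.61, 15.2 and 17.6 CPM in FM replicates 1, 4 and 5 and at 0.53, 0.62 and 0.81 CPM in FM replicates 2, 3 and 6. Without FM replicates 3, 4 and 5 ryr2b was not called (-1.58, edgeR adjusted p = 0.254).

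Some genes that move water and ions were down-regulated in soybean fish. Of 16 measured genes 3 fell and none rose, 8 had an unadjusted p under 0.05 in the lower direction, and the median log2 fold change was -0.88. Over all 32157 genes tested, 5726 had an unadjusted p under 0.05 in either direction. The water and glycerol channel aqp10b was at 15.1 to 48.8 CPM in FM fish (median 26.2) and at 0 to 24.7 CPM in soybean fish (median 6.23), with 26 of 30 below the FM range (log2 fold change -1.83 ± 0.36, edgeR adjusted p = 0.00546). The call of aqp10b was lost without the diet AWA and without FM replicates 3, 4 and 5 (edgeR adjusted p up to 0.199). The fall of aqp1 (-2.30 ± 0.55) rested in part on FM replicate 2, which stood at 13.4 CPM against an FM median of 0.78 CPM, and was not called without that fish (-0.92, edgeR adjusted p = 0.49). The chloride channel protein clic5a had an FM range of 21.0 to 279 CPM and a soybean median of 4.65 CPM, and 21 of 30 soybean fish were below that range (-2.71 ± 0.70, edgeR adjusted p = 0.0352). Its call was lost without FM replicate 1, 4, 5 or 6 (edgeR adjusted p = 0.0563, 0.119, 0.156 and 0.0521). Outside the list, the sodium-sulfate cotransporter slc13a1 fell from an FM median of 1.20 CPM to 0.05 CPM (-4.77 ± 0.79, edgeR adjusted p = 0.0013). FM replicates 1, 4 and 5 stood at 2.16, 10.5 and 19.4 CPM of slc13a1 and FM replicates 2, 3 and 6 at 0.24, 0.07 and 0.09 CPM, within the soybean range, and without FM replicates 3, 4 and 5 it was not called (-2.05, edgeR adjusted p = 0.328). The water channel aqp8 (-2.01), the bicarbonate cotransporter slc4a4a (-2.44) and the sodium-potassium-chloride cotransporter slc12a1 (-1.24) were lower without passing the test.

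Genes of lipid absorption and of peptide and amino acid transport mostly had log2 fold changes below 0, with few calls. In the list of lipid absorption all 7 measured genes had fold changes below 0 (median -0.89), and dgat1a, which makes triglyceride, was called (-0.89 ± 0.21, edgeR adjusted p = 0.0240), though not without FM replicate 3, 4 or 5 (edgeR adjusted p = 0.0791, 0.0546 and 0.0899). The apolipoprotein B gene apobb.1 (-2.79) and apoa1 (-1.85) did not pass the test, and apobb.1 did without ICJ replicate 4 and IWA replicate 5 (-2.84). The paralog dgat1b, outside the list and chosen after its value was seen, moved the other way (1.34 ± 0.31, edgeR adjusted p = 0.0201). Whether the counting split reads between the copies was not tested. The sodium-glucose cotransporter slc5a1 had a log2 fold change of -0.63 and was not called.

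Peptide and amino acid transport had no called member among 11 and a median log2 fold change of -0.64, in which the peptide transporter slc15a1 had the largest value (-3.19). Without ICJ replicate 4 and IWA replicate 5, slc7a8a (-0.80), slc3a2a (-0.71) and slc3a1 (-0.66) were called lower. In ICJ replicate 4 this list summed to 243.5 CPM, the lowest of the 36 libraries. Outside this list, the amino acid transporter gene slc7a6 was lower (-1.71, edgeR adjusted p = 0.0351) and s38a2 higher (1.47, edgeR adjusted p = 0.0174). Both were chosen after their values were seen. Of 19 brush border genes 18 had fold changes below 0, as had 17922 of all 32157 genes tested, and none was called. The disaccharidase si (-1.90) and the protease mep1a.2 (-1.02) were called without both libraries. Among 9 genes of cytochromes P450 and conjugation cyp4v2b fell (edgeR adjusted p = 0.0218) from an FM median of 28.6 CPM to 3.96 CPM, and hebp1, which binds haem, fell by 0.80 on the log2 scale (SE 0.18, edgeR adjusted p = 0.0191) among 8 genes of iron and haem. Neither held in every fit with 1 fish left out: cyp4v2b was lost without FM replicate 4, 5 or 6 (edgeR adjusted p = 0.0546, 0.0977 and 0.0516) and hebp1 without FM replicate 3, 5 or 6 (edgeR adjusted p = 0.0508, 0.0675 and 0.117). The retinoid list of 13 genes shares dgat1a as its called member, and its carotene oxygenase bco1 (-1.80) and retinol dehydrogenase rdh1 (-1.19) did not pass the test with all libraries and did without both. Lastly, LOC106611642, an Abca1-like lipid exporter, fell (-2.84 ± 0.70, edgeR adjusted p = 0.0287), with 7 soybean fish below the FM range, but not without FM replicate 4 or 5 (edgeR adjusted p = 0.0723 and 0.241).

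Cholesterol synthesis genes were not called. The 11 measured genes had log2 fold changes of -0.12 (lss) to 0.62 (hmgcs1), a median of 0.21, and no unadjusted p under 0.05. The regulator srebf2, which drives the pathway, had a value of -0.06. The same held without ICJ replicate 4 and IWA replicate 5, where none was called and the median was 0.24.

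**Figure D3:**
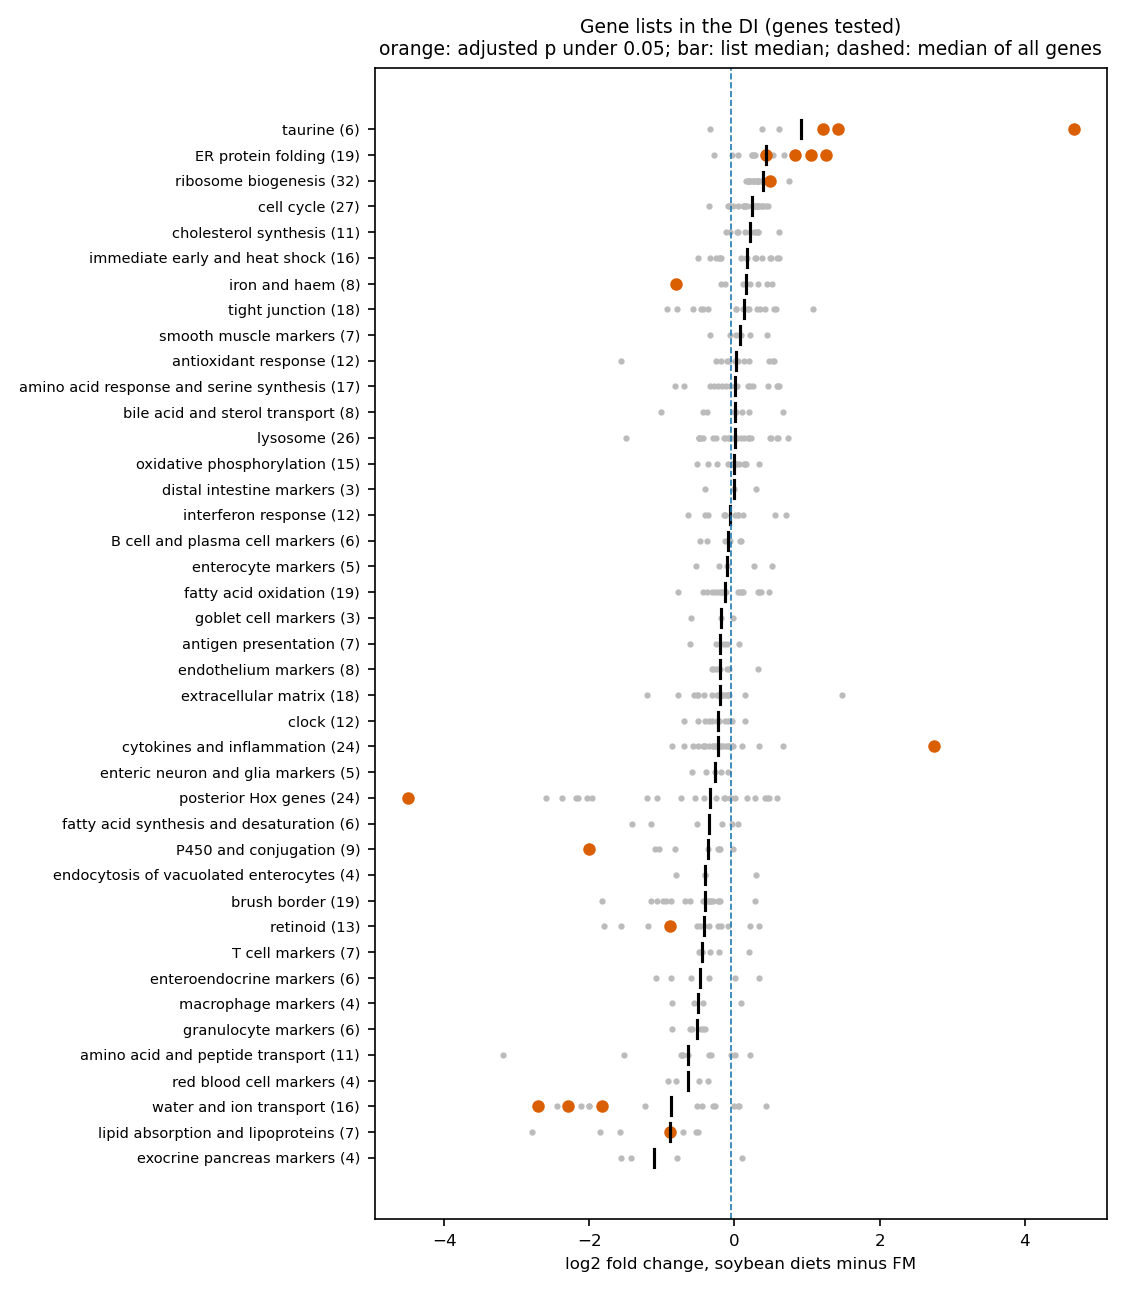
Log2 fold change of soybean diets over FM (x axis) for each measured gene of the lists shown (y axis, number of genes in parentheses). Each point is 1 gene, large orange points are DEGs, bars are list medians and the dashed line is the median of all genes tested (-0.05). The medians of taurine handling, ER protein folding and ribosome biogenesis lie farthest to the right. Those of exocrine pancreas markers, lipid absorption, and water and ion transport lie farthest to the left.

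The list of inflammation genes held 1 DEG, beside 627 of all 32157 genes tested (1.95%). Of 24 measured cytokines, receptors and inflammatory enzymes 1 rose, none fell and the median log2 fold change was -0.23. The gene that rose was ifngr1b, which encodes a chain of the interferon gamma receptor, from an FM range of 0.36 to 1.31 CPM to a soybean median of 7.09 CPM (2.74 ± 0.72, edgeR adjusted p = 0.0382). It lay above the FM range in 24 of 30 soybean fish, and its call was lost without any 1 of the FM fish, SBM replicate 6 or ICJ replicate 3 (edgeR adjusted p = 0.0503 to 0.103). The other measured receptor chains did not pass the test, with log2 fold changes of -0.07 (ifngr1a), -0.35 (ifngr2a) and -0.12 (ifngr2b), and neither did il8 (-0.43), mmp9 (-0.70) or myd88 (0.33). ICJ replicate 4 had the highest summed level of this list, 1141 CPM, against an FM range of 260 to 662 CPM.

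Marker lists of the cell types in the DI held no DEG with all libraries, and without ICJ replicate 4 and IWA replicate 5 the enteroendocrine marker insm1b was lower (-0.85). The T cell list had a median log2 fold change of -0.44 over 7 genes (cd3e -0.21, cd8a -0.49), the macrophage list -0.50 over 4 and the granulocyte list -0.52 over 6. The enterocyte list (-0.10) and the DI list (-0.01) were near the median of all genes. The summed granulocyte markers ranged from 370 to 24285 CPM in FM fish and from 76.4 to 25665 CPM in soybean fish, so the FM range lay within the soybean range. Exocrine pancreas markers, which can enter with adjoining tissue, summed to 1.23 to 394 CPM in FM fish and 0.79 to 4443 CPM in soybean fish, and their part in the results was not tested.

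Posterior Hox genes, whose expression marks position along the gut, also varied between fish of 1 diet. Of 24 measured genes hoxb13aa was called, with a log2 fold change of -4.50 ± 1.17 (edgeR adjusted p = 0.0366). By diet the values were -9.22 (SBM), -2.49 (ICJ), -9.18 (ACJ), -0.52 (IWA) and -1.08 (AWA). In 11 of 50 alternatives, DESeq2 among them, hoxb13aa was not called. The call rested on FM replicates 3 and 6, at 105 and 80.2 CPM, and was lost without either (edgeR adjusted p = 0.104 and 0.128), while the other 4 FM fish were at 0 to 0.30 CPM. Of the soybean fish, ICJ replicates 1 and 5, IWA replicates 4 and 6 and AWA replicates 3 and 4 were at 8.17 to 66.8 CPM and the rest at 1.19 CPM or less, so FM replicates 3 and 6 lay above all soybean fish and the other FM fish within their range. Of clic5a, FM replicates 2, 3 and 6 had 23.4, 21.0 and 25.8 CPM, against 77.9, 238 and 279 CPM in FM replicates 1, 4 and 5. The part that the position of the sampled piece has in the results was not tested.

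The 5 soybean diets were also compared among themselves, with an F test that used no FM fish. It called 28 genes (0.0871% of genes tested), 3509 had an unadjusted p under 0.05, and none of the 28 was among the 627 DEGs. As DEGs were 1.95% of the genes tested, any 28 genes would hold few of them. Of the 627 DEGs, 101 had an unadjusted p under 0.05 in this test, beside 3509 of all 32157 genes. Most of the 28 had their highest mean in ICJ, such as clcnk, at 21.9 CPM against 0.13 to 0.44 CPM in the other soybean diets. A few had it in another diet, such as LOC106584699, highest in AWA (4.89 CPM). Without ICJ replicate 4, the library that went against its label, no gene was called by edgeR and 2624 had an unadjusted p under 0.05. The cause of this loss was not tested. Thus differences between the soybean diets in the DEGs were not detected with 6 fish a diet, which does not show that the diets acted alike.

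**Figure D4:**
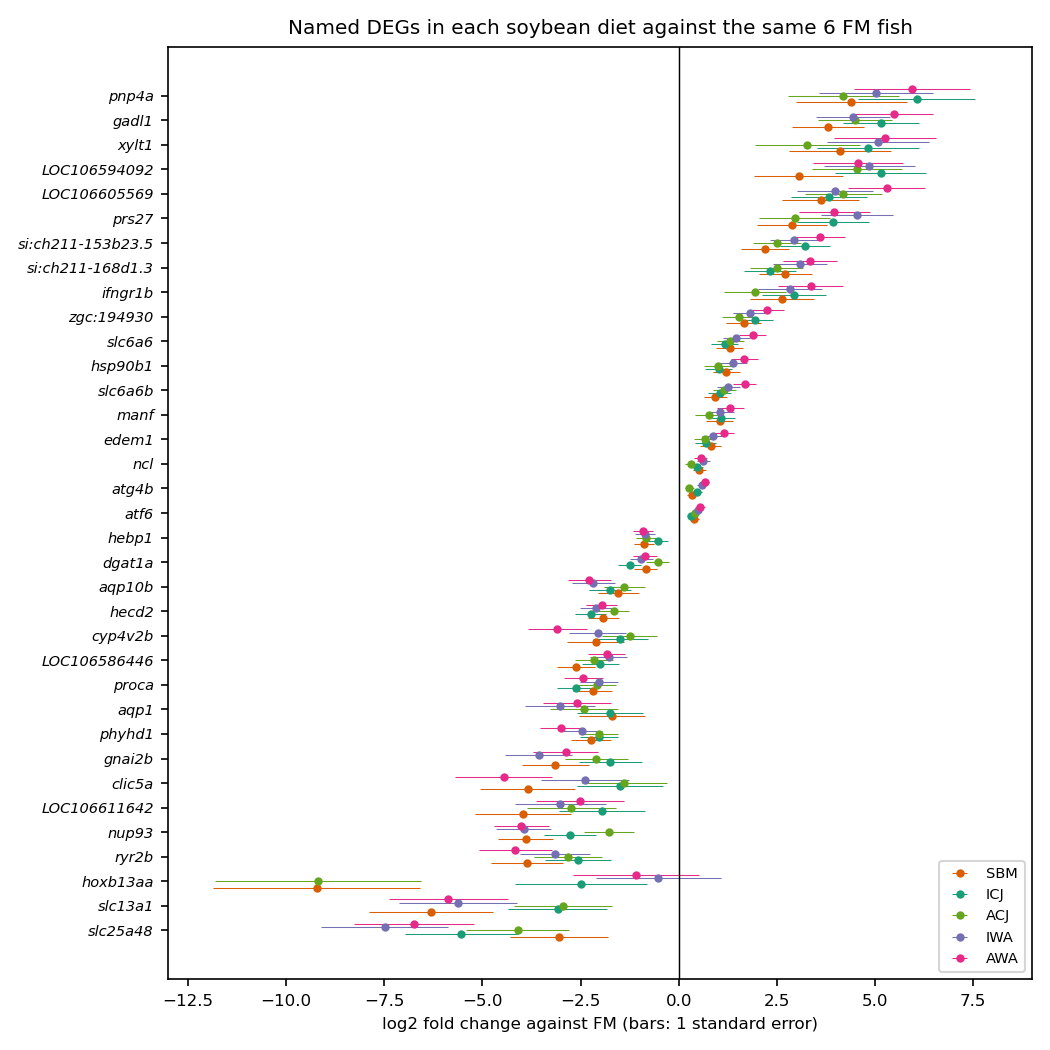
Log2 fold change over FM (x axis) of the named genes (y axis) in each of the 5 soybean diets, from a single fit. Points are diets and bars are 1 standard error, and all 5 diets share the 6 FM fish. AWA lies farthest from 0 for gadl1, slc6a6 and slc6a6b.

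Each diet's own fold changes are given side by side, since they share the FM fish. For gadl1 they were 3.80 (SBM), 5.15 (ICJ), 4.50 (ACJ), 4.45 (IWA) and 5.48 (AWA), and for slc6a6 1.30, 1.17, 1.31, 1.47 and 1.88 in the same order. For aqp10b they were -1.54, -1.75, -1.38, -2.18 and -2.28. Over the 231 up-regulated DEGs the median was 0.88 in SBM, 0.93 in ICJ, 0.75 in ACJ, 1.08 in IWA and 1.24 in AWA, which describes DEGs that the same fish chose.

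Within diets the fish were unlike. The share of the 231 up-regulated DEGs in which a fish lay above all FM fish was 93.9% to 99.6% in the 6 fish fed AWA, but 20.3% to 98.3% in ACJ, 26.4% to 98.7% in ICJ, 52.4% to 99.1% in SBM and 56.7% to 97.4% in IWA. The lowest shares were those of ACJ replicate 6 (20.3%), ACJ replicate 4 (23.8%), ICJ replicate 2 (26.4%) and ICJ replicate 6 (31.2%). Over all genes tested a soybean fish lay above the FM range in 4.74% to 26.1% of genes. As the same fish chose the DEGs, these shares describe how the fish were spread within the call and test nothing.

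**Figure D5:**
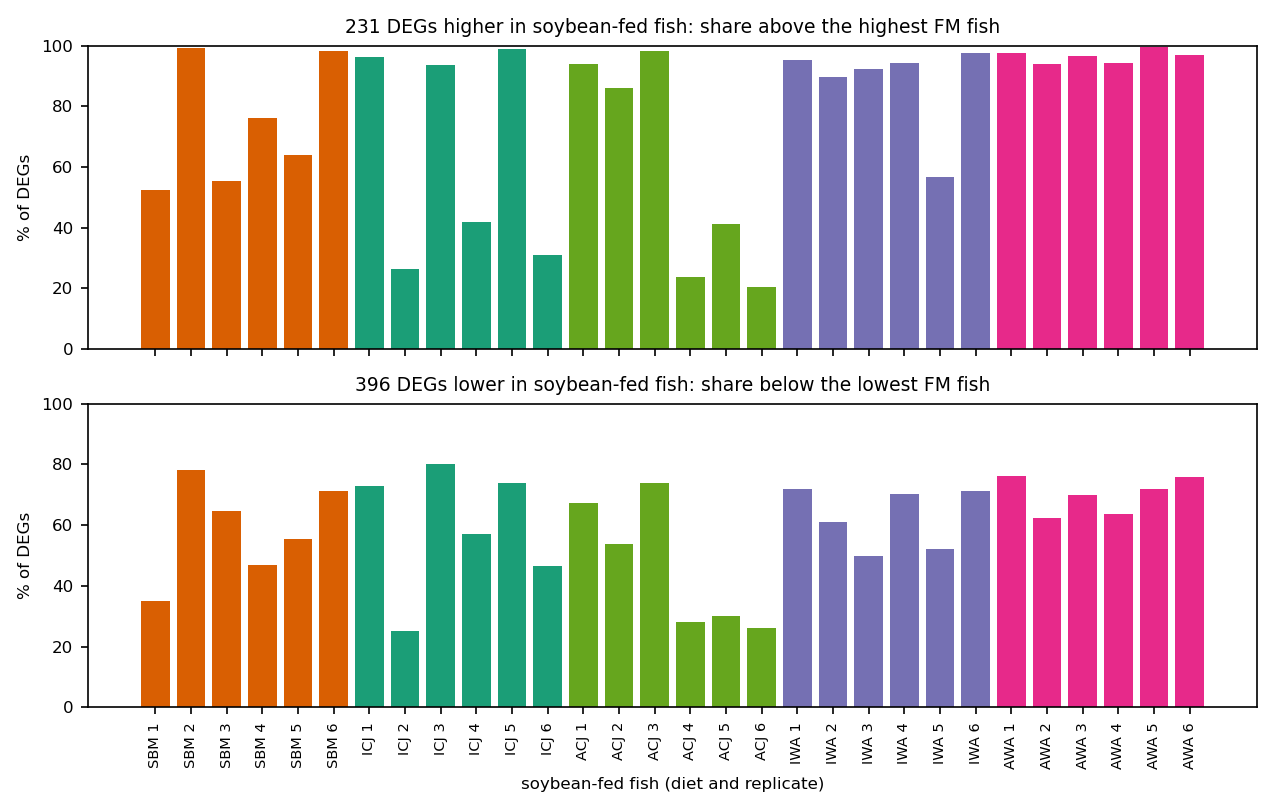
Percent of the 231 up-regulated (upper panel) and 396 down-regulated (lower panel) DEGs in which a soybean fish was past all 6 FM fish on the DEG's side (y axis), for each fish by diet (x axis). Each bar is 1 fish. The 6 AWA fish lie between 93.9% and 99.6% for the up-regulated DEGs and the ACJ fish between 20.3% and 98.3%.

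In the spleen of the same fish the contrast gave no DEG among 32144 genes tested with edgeR (0%), 3232 had an unadjusted p under 0.05, and DESeq2 called 20. The difference between the tissues was tested in 1 model with each fish as a block, and 226 of 35067 genes (0.644%) had a response that differed. The DEGs were chosen for their change in the DI, which is a part of the difference tested, so an excess among them is built in. Of the 627 DI DEGs 157 were past this test. They included nup93, with a log2 fold change 3.19 lower in the DI than in the spleen (edgeR adjusted p = 0.00196), gadl1, 3.75 higher (edgeR adjusted p = 0.0378), and slc6a6, 1.35 higher (edgeR adjusted p = 0.0303). This count also depended on FM fish: it was 1006 without FM replicate 3 and 4 without FM replicate 6, and 31, 113, 22 and 96 without FM replicates 1, 2, 4 and 5. It was 691 without ICJ replicate 4.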

How the data were processed

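Poly(A) RNA from 36 DI and 36 spleen samples was sequenced with stranded libraries. The authors trimmed reads with Trim Galore, aligned them with STAR and RSEM to Ssal_v3.1, and deposited whole fragment counts per gene, not normalized. Counting used featureCounts, reverse-stranded (version 1.4.6 per the labels, 1.5.1 per the file headers), with options that do not leave out the marked duplicates. The 69389 genes were paired by position (at least 50% overlap) with RefSeq genes of that build for symbols. Product names came from the study's supplement.

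Counts of the 36 DI libraries were fitted with edgeR 4.0.16 in R 4.3.3 (TMM, filterByExpr by diet, robust quasi-likelihood, diet as factor). The contrast was the mean of the 5 soybean diets minus FM. P-values were Benjamini-Hochberg adjusted over all genes, with 0.05 as the limit. Each SE was worked back from the test, as the absolute log2 fold change divided by the square root of F, and is approximate. DESeq2 1.42.0 and limma 3.58.1 gave alternatives. The fits were also run on simulated data with less spread between fish than these data, which checks the code and not the calls. CPM used TMM library sizes. At these depths genes under 1 CPM rest on few fragments.

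The text names DEGs with a symbol or product name, at least 1 CPM on average and all 5 diets on 1 side: the 8 largest rises and falls, the 6 lowest p in each direction, and called list members. Members and lists were chosen with earlier results of these data known. Other names are marked as chosen after their values were seen or stand as list members. A result for a further gene is not reported here.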

Additional observations from a re-analysis of the deposited data

Results flagged for a closer look

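In the FM group, 1 of the 6 fish stood apart from the other 5 by Dixon's test in 3 of 47 named genes tested, where chance gives about 1 in 20. FM replicate 3 was the highest for slc6a6 (231 CPM) and edem1 (86.4 CPM), and FM replicate 2 for aqp1 (13.4 CPM).

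The response to the soybean diets differed between the DI and the spleen of the same fish for 226 genes by the interaction test. Among the named genes the log2 fold change was higher in the DI for gadl1 (3.75), si:ch211-153b23.5 (2.76), slc6a6 (1.35), slc6a6b (0.94), ncl (0.68) and atf6 (0.43). It was lower in the DI for hecd2 (-1.79), LOC106586446 (-2.20), phyhd1 (-2.32), nup93 (-3.19) and slc25a48 (-5.47). These genes were named for their change in the DI, which is a part of this difference.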

How the results depend on the processing

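Of the 627 DEGs, those with a value in an alternative (618 to 627) kept their direction, except 2 without FM replicate 1, 2 without FM replicates 3, 4 and 5, and 1 each without FM replicate 2 and FM replicate 4, and none of the 36 called named genes reversed in 50 alternatives. Of these, 7 never lost their call and 29 did at least once, most often without FM replicates 3, 4 and 5 (28) and without AWA (23). The number of DEGs (higher, lower) was 1247 (585, 662) with DESeq2, 1219 (460, 759) with limma voom and the inferred tank as a random block, 2330 (1398, 932) with counts summed per inferred tank (runs of 6 fish numbers, not labelled tanks) and 128 (43, 85) with a log2 limit of 2. With no filter on low counts 152 were higher. It was 1693 (864, 829) without ICJ, 949 (357 higher) without ACJ, 288 (83, 205) without IWA, 72 (7, 65) without AWA and 73 (3, 70) without FM replicates 3, 4 and 5. Without ICJ replicate 4 and IWA replicate 5, chosen after the data were seen, it was 1965 (834, 1131). With 1 fish left out it ranged from 183 to 1198, of which 39 to 520 were higher and 144 to 678 lower. The cause of these moves was not tested.

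Replicate numbers did not pair the fish of different diets: 34 of 90 same-numbered pairs had a correlation over 0.1 (median -0.0024), and 8 of 36 fish correlated best with their own number. With the replicate block 384 DEGs (123, 261) were found, and 0 genes differed among the soybean diets, against 28 without it. That test gave 167 with no filter and 0 to 62 with 1 fish left out. The tissue difference, paired by fish number in the labels, was 472 with no replicate block, 36 with a log2 limit of 2, and 4 to 1006 with 1 fish left out. DESeq2 called 20 genes in the spleen. A search of promoters for motifs was not run. Genes near 0 CPM in FM fish rest on few fragments, so their fold changes are loosely set.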

Other observations

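Further DEGs outside the named genes and lists, chosen after their values were seen, are given as values. Among metabolic genes, both called copies of abat, the transaminase of the inhibitory transmitter GABA, were down-regulated (log2 fold changes -1.10 and -1.47). The glutaminase gls2b fell by 3.36 on the log2 scale. The glutamine transporter s38a2 rose (1.47), as did the heparan sulfate-degrading enzyme hpse (2.29) and the binding protein igfbp3 (1.76), with 25 and 26 of 30 soybean fish above the FM range for the last pair.

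Among nuclear receptors, nr1d1, a repressor of the circadian clock, was at a median of 1.70 CPM in soybean fish (log2 fold change -1.45, 26 of 30 below the FM range). A pair of called genes with the symbol rorc, a receptor of the ROR family, were lower (-1.29 and -1.21), as was rorcb (-1.01). The list of 12 clock genes, which does not hold nr1d1, held no DEG and had a median log2 fold change of -0.22. The gene with the lowest p of all, ldlrad2, a low density lipoprotein receptor class A domain gene, fell from a median of 1.91 to 0.56 CPM (-2.37, edgeR adjusted p = 1.1e-05), with 28 of 30 soybean fish below the FM range. It lay under the mean level asked of named genes.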
